A study of Mus musculus with 24 samples.

Results

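The simple epithelial keratins Krt7, Krt8, Krt18, Krt19, Krt20 and Krt23 were followed through cultures of mouse liver cells. The 6 genes were chosen by symbol, and all 6 were listed in each of the 3 FPKM tables, of 31053 genes in the hepatocyte table, 25876 in the cholangiocyte table and 20729 in the Smart-Seq table. FPKM is the number of fragments of a gene scaled to its length and to the total of the library, so it can be compared between genes as far as the gene lengths behind it are the same. All 6 passed the low-value filter in both bulk tables, which asked for 3 libraries with 1 FPKM or more, and the Smart-Seq table was not tested.

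The cells came from the liver of wild-type BALB/c mice of 6 to 8 weeks, and no group carried a transgene or a deletion. Hepatocyte organoids (Hep-Orgs) were grown in Matrigel from Percoll-purified cells depleted of EpCAM+ cells, in Hep-Med with the Notch inhibitor DAPT and dexamethasone, and were sequenced at P1, P5 and P10 beside libraries labelled Primary hepatocytes (Pri-Hep). Cholangiocyte organoids (Cho-Orgs) were grown from EpCAM+ cells in another medium, without DAPT or dexamethasone and with forskolin, Wnt3a and Noggin. Cho-Orgs were sequenced at P0, P5 and P10, and each of these 7 bulk groups had 3 libraries. Hep-Orgs of P0 were also picked by shape from Hep-Med cultures, and the shapes Grape-like, Intermediate and Round-like gave 1 Smart-Seq library each. The study names the replicates as mice in one place and as independent cultures in another, and p-values measure only the spread between these libraries.

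Keratins are intermediate filament proteins that assemble as pairs of a type I and a type II chain. Krt7 and Krt8 are type II chains, and Krt18, Krt19, Krt20 and Krt23 are type I chains. In the liver, hepatocytes are known to make Krt8 and Krt18, and bile duct cells to add Krt7 and Krt19. Krt20 is known from the epithelium of the gut and stomach and from the urothelium, and Krt23 is the least studied of the set.

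The members lie in the 2 keratin gene clusters of the mouse genome, with coordinates on GRCm38 as given in the hepatocyte table. On chromosome 15 are Krt7 (ENSMUSG00000023039, 101411043 to 101430313, + strand), Krt8 (ENSMUSG00000049382, 101996698 to 102004482, - strand) and Krt18 (ENSMUSG00000023043, 102028180 to 102032027, + strand), the only type I chain outside the type I cluster. On chromosome 11 are Krt19 (ENSMUSG00000020911, 100140810 to 100148665), Krt20 (ENSMUSG00000035775, 99428403 to 99438150) and Krt23 (ENSMUSG00000006777, 99477974 to 99493137), all on the - strand. In GENCODE M21 the antisense gene Gm671 overlaps the start region of Krt7 and the lincRNA Gm36026 overlaps the 5′ end of Krt8 on the opposite strand, a Krt8 pseudogene (Krt8-ps) lies on another chromosome, and whether the counting used strand is not given in the sources used here.

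Promoter windows from RefSeq (GRCm38.p6, 250 bases before to 50 after the annotated start) were available for 5 of the 6 members, and those of Krt7, Krt20 and Krt8 are shown because these genes had the largest rises and the fall over the passages of Cho-Orgs. Capitals mark, on either strand, the TATA box (letters TATAAA), the GC box (letters GGGCGG), the CCAAT box (the letters in its name) or the AP-1 site (letters TGANTCA).
Krt7, chr15:101412153-101412452, + strand: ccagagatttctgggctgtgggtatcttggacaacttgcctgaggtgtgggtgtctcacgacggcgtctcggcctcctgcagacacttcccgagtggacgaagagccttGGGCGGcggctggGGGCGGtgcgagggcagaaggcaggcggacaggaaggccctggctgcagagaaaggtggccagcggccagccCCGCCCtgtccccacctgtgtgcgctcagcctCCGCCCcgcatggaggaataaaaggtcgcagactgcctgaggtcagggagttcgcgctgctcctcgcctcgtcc
Krt20, chr11:99438104-99438403, - strand: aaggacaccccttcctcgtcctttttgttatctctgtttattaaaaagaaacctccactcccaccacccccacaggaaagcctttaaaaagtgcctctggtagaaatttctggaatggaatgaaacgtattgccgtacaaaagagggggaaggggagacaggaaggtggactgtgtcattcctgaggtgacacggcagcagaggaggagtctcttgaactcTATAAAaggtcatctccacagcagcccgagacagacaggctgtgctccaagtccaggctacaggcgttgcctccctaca
Krt8, chr15:102004293-102004592, - strand: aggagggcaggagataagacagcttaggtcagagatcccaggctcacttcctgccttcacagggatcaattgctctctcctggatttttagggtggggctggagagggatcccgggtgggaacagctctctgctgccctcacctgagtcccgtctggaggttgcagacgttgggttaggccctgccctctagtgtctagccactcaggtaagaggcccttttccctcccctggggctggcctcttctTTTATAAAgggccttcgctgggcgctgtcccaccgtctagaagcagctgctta

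The Krt7 window held 4 GC boxes and 21 CG dinucleotides, with 66.3% G or C, and the median of all 32851 windows was 7 CG dinucleotides and 52.7% G or C. The Krt20 window held 1 TATA box, which began 29 bases before the start, with 6 CG dinucleotides. The Krt8 window held a TATA box on each strand, in 8 overlapping bases that begin 3 bases before the start and run across it, with 6 CG dinucleotides and 58.0% G or C. In the windows of Krt18 (61.3% G or C, 17 CG dinucleotides) and Krt23 (53.0%, 6 CG dinucleotides) none of the 4 motifs was found. Of all windows, 35.7% held the GC box, 13.6% the TATA box, 37.4% the CCAAT box and 7.81% the AP-1 site, so a GC or CCAAT box in a window of this length is common. The start of the RefSeq window for Krt7 lies inside the span that the hepatocyte table gives for this gene.

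Library totals recovered from the steps of the FPKM values ran from 14068906 to 27160365 fragments for the hepatocyte table, from 37467796 to 39926192 for the cholangiocyte table and from 40035109 to 40375837 for Smart-Seq. Each member had at least 402 fragments in every library of the hepatocyte table and at least 965 in every library of the cholangiocyte table. The libraries labelled Primary hepatocytes and the bulk Hep-Orgs libraries alike went against their hepatocyte label by their markers, and are named by their labels throughout. The 18 hepatocyte markers summed to 970 to 1010 FPKM in the libraries labelled Primary hepatocytes against 984 to 1040 FPKM in Hep-Orgs, with Apoa2, Pck1 and Serpina1c at 0 in the former, and the 15 non-keratin cholangiocyte markers summed to 5063 to 5148 FPKM against 4992 to 5228 FPKM. Albumin (Alb) had a mean of 112 FPKM in the libraries labelled Primary hepatocytes and of 109 to 115 FPKM in the bulk Hep-Orgs groups, while it had 4994 FPKM in Cho-Orgs at P0 and 565 to 5729 FPKM in the Smart-Seq Hep-Orgs. Libraries of that table also lay close together, with a variance over counting noise of 1.59 in the median gene across all 12 (1 would be counting noise alone).

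The first comparison asked how the keratins of Cho-Orgs changed with passage. Krt7 rose 3.71-fold from P0 to P10, Krt20 rose 2.48-fold, Krt23 1.59-fold and Krt19 1.34-fold, while Krt8 fell to 0.786 of its P0 level. Krt18 did not pass the test in any of the 3 contrasts. From P0 to P5, 5 of the 6 members passed (4 higher and 1 lower) where 56.6% of all 11593 genes tested passed (34.0% higher and 22.6% lower). From P5 to P10, 1 member passed, upwards, where 61.5% of genes passed and 31.0% passed upwards. From P0 to P10, 5 members passed against 72.3%, of which 4 were higher (41.0% of all genes) and 1 lower (31.3%). In each contrast the libraries of 5 members did not overlap between the passages, against 61.5% of genes from P0 to P5, 74.2% from P5 to P10 and 75.1% from P0 to P10. The median log2 fold change of the 6 from P0 to P10 was 0.54, beside 0.07 over all genes tested. The 3 contrasts share libraries and were fitted together with limma on log2(FPKM + 1), two-sided, with Benjamini-Hochberg adjustment over all genes tested. In bulk libraries, fewer cells of a type and less RNA per cell cannot be told apart.

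**Figure D1:**
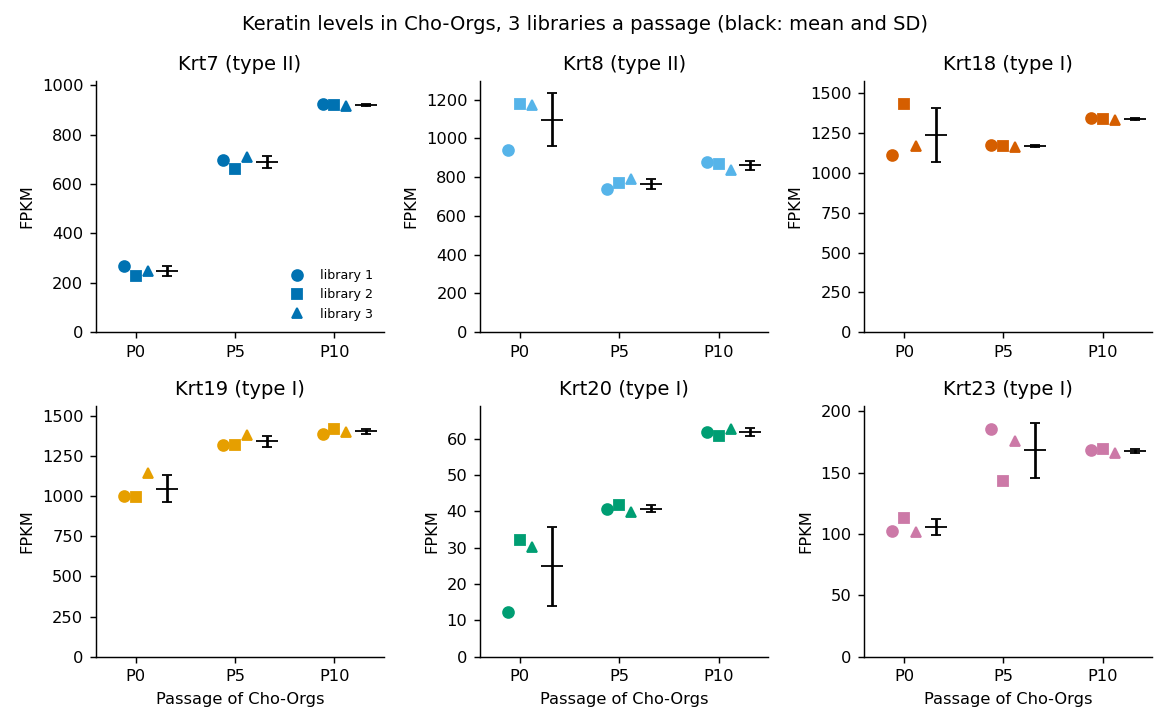
FPKM of each keratin in Cho-Orgs (vertical axis from 0, separate scale in each panel) at P0, P5 and P10. Coloured points are single libraries, with a marker shape for each library number, and black bars are the mean and SD of 3. Krt7 climbs from a mean of 248 to 689 and 920 FPKM, while Krt8 starts at 1096 and ends at 861 FPKM.

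Among the type II chains, Krt7 had 268, 228 and 248 FPKM in the 3 libraries of P0, 696, 661 and 709 FPKM at P5 and 924, 921 and 914 FPKM at P10. The 3 passages did not overlap, and most of the rise fell between P0 and P5. The log2 fold change of Krt7 was 1.47 ± 0.06 (SE) from P0 to P5 (limma adjusted p = 8.03e-08), 0.42 ± 0.06 from P5 to P10 (adjusted p = 0.000226) and 1.89 ± 0.06 from P0 to P10 (adjusted p = 5.57e-09). By mean FPKM it moved from the 243rd to the 61st place among all genes of the table.

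Krt8 had 940, 1178 and 1172 FPKM at P0, 740, 768 and 791 FPKM at P5 and 879, 870 and 835 FPKM at P10. Every later library lay below every P0 library, and library 1 of P0 was the closest to them. Between P0 and P5 the log2 fold change of Krt8 was -0.51 ± 0.08 (limma adjusted p = 0.000558). The return of 0.17 ± 0.08 from P5 to P10 did not pass (adjusted p = 0.101), and P10 stayed below P0 with a log2 fold change of -0.34 ± 0.08 (adjusted p = 0.00404). That last call was lost without library 3 of each passage (log2 fold change -0.27, adjusted p = 0.0824).

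Among the type I chains, Krt19 had 997, 996 and 1141 FPKM at P0, 1320, 1320 and 1379 FPKM at P5 and 1387, 1420 and 1399 FPKM at P10. All later libraries exceeded those of P0. The log2 fold change was 0.36 ± 0.06 from P0 to P5 (limma adjusted p = 0.000585) and 0.43 ± 0.06 from P0 to P10 (adjusted p = 0.000103), and the step of 0.07 ± 0.06 from P5 to P10 did not pass (adjusted p = 0.355). By FPKM as deposited, Krt19 was therefore the highest of the 6 at P5 and P10.

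Krt18, the usual partner of Krt8, had 1114, 1434 and 1170 FPKM at P0, 1178, 1169 and 1163 FPKM at P5 and 1347, 1336 and 1331 FPKM at P10. The P0 libraries spread around both later groups. Its log2 fold change was -0.07 ± 0.08 from P0 to P5 (limma adjusted p = 0.459) and 0.12 ± 0.08 from P0 to P10 (adjusted p = 0.214). From P5 to P10, whose libraries did not overlap, it was 0.19 ± 0.08 (adjusted p = 0.0634). Library 2 of P0 was the highest of the 9. Without library 2 of each passage, Krt18 had a log2 fold change of 0.23 between P0 and P10 (limma adjusted p = 0.0123) and of 0.19 between P5 and P10 (adjusted p = 0.0304), and the value of 0.036 between P0 and P5 did not pass.

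Krt20 had 12.4, 32.1 and 30.3 FPKM at P0, 40.5, 41.7 and 39.8 FPKM at P5 and 61.8, 60.8 and 62.8 FPKM at P10. The passages did not overlap, and library 1 of P0 lay far under its group. The log2 fold change was 1.39 ± 0.28 from P0 to P10 (limma adjusted p = 0.00120), 0.79 ± 0.28 from P0 to P5 (adjusted p = 0.0320) and 0.59 ± 0.28 from P5 to P10 (adjusted p = 0.0872). The first step was lost with median-ratio size factors (0.71, adjusted p = 0.0534), with no filter on low genes (0.79, adjusted p = 0.0874) and without library 3 of each passage (1.00, adjusted p = 0.0797), and the second step passed without library 1 of each passage (0.59, adjusted p = 0.000298). Without that library the first step was 0.38 (adjusted p = 0.00236). Library 1 of P0 also had the highest sum of 12 intestinal and gastric markers, 4018 FPKM against 1878 and 3384 FPKM in libraries 2 and 3, and the sums were 1178 to 1313 FPKM at P5 and 927 to 936 FPKM at P10. The markers did not all move with their sum. Of the 10 tested from P0 to P10, 7 fell and 1 rose. Mean Tff1 fell from 1275 to 3.87 FPKM and mean Gkn2 from 81.1 to 0 FPKM. Cdh17 rose from a mean of 101 to 143 FPKM (limma adjusted p = 0.0471). Lgals4 had means of 601 FPKM at P0 and 676 FPKM at P10 and did not pass (limma adjusted p = 0.324). The part of the 12 markers in the Krt20 level was not tested.

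Krt23 had 102, 113 and 102 FPKM at P0, 186, 143 and 176 FPKM at P5 and 168, 170 and 166 FPKM at P10. It rose once, by a log2 fold change of 0.66 ± 0.09 from P0 to P5 (limma adjusted p = 0.000183). P5 and P10 overlapped (adjusted p = 0.968).

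The order of the 6 by level changed with passage. At P0, Krt18 (1239 ± 171 FPKM, SD, n = 3), Krt8 (1096 ± 136) and Krt19 (1045 ± 83.5) overlapped in neighbouring places, and Krt7 (248 ± 19.6), Krt23 (106 ± 6.32) and Krt20 (24.9 ± 10.9) followed apart from each other. At P10 the order was Krt19 (1402 ± 16.9 FPKM), Krt18 (1338 ± 8.44), Krt7 (920 ± 5.40), Krt8 (861 ± 23.1), Krt23 (168 ± 1.76) and Krt20 (61.8 ± 1.02), with no overlap between neighbours. By FPKM as deposited, Krt7 had thus passed Krt8 as the higher type II chain. This order rests on the gene lengths behind the FPKM, 1586 bases for Krt7 and 1416 for Krt19. The hepatocyte table lists 7049 and 1855 bases for these genes. By fragments, Krt8 stayed above Krt7 in each P10 library (60530, 58836 and 56501 against 55908, 54752 and 54304).

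Ratios within a library do not depend on how that library was scaled. Their size does depend on the gene lengths behind the FPKM, while the change over passages of a ratio between single genes does not. The ratio of Krt7 to Krt8 was 0.230 ± 0.0482 (SD, n = 3) in P0 libraries, 0.899 ± 0.0399 in those of P5 and 1.07 ± 0.0227 in those of P10. The log2 value of this ratio rose by 1.12 per 5 passages (exact two-sided permutation test over 9 libraries, p = 0.00119, the smallest the design allows). Its adjusted p was 0.00595 over the 10 composition tests of both bulk tables. With passages permuted only within replicate numbers (a replicate block), p was 0.00926, the smallest this allows, and the adjusted p was 0.0463. Among the type I chains, the ratio of Krt19 to Krt18 was 0.855 ± 0.145 at first, 1.15 ± 0.0354 at P5 and 1.05 ± 0.0171 at P10, and its log2 slope of 0.15 per 5 passages did not pass (exact permutation p = 0.0988, adjusted p = 0.198).

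For sums of several genes, both the size and the direction of a change over passages can depend on the gene lengths. Other lengths were not tried for Cho-Orgs, so the values that follow hold for FPKM as deposited. The ratio of the summed type I chains to the summed type II chains was 1.80 ± 0.0674 at P0, 1.87 ± 0.0297 by P5 and 1.67 ± 0.0240 by P10. The P10 libraries (1.64 to 1.69) lay below those of both earlier passages (1.72 to 1.84 at P0 and 1.84 to 1.90 at P5). The log2 slope of -0.05 per 5 passages did not pass the exact permutation test (p = 0.0929, adjusted p = 0.198). Krt8 and Krt18 together made up 62.0 ± 3.14% of the summed FPKM of the 6 at P0, 46.4 ± 0.713% at P5 and 46.3 ± 0.360% at P10. This share fell by 7.86 percentage points per 5 passages (exact permutation p = 0.0107, adjusted p = 0.0357), and the group means differed between P0 and P5 rather than between P5 and P10. With the replicate block, the adjusted p of this share was 0.123. The 6 keratins summed to 3759 ± 289 FPKM at P0, 4173 ± 78.3 by P5 and 4751 ± 37.6 by P10. The log2 slope of this sum was 0.17 per 5 passages (exact permutation p = 0.00119, adjusted p = 0.00595, and adjusted p = 0.0463 with the replicate block).

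**Figure D2:**
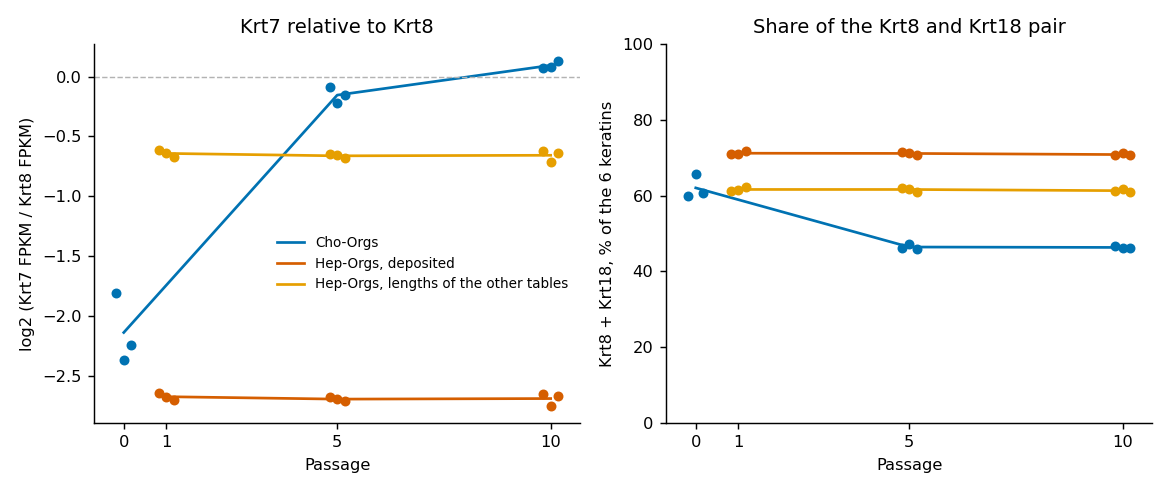
Left, log2 of the ratio of Krt7 to Krt8 FPKM against passage. Right, Krt8 plus Krt18 as percent of the summed FPKM of the 6 keratins. Points are libraries, slightly spread sideways, and lines join group means of Cho-Orgs (blue) and of Hep-Orgs with deposited FPKM (dark orange) or with the gene lengths of the other tables (light orange). The mean Cho-Orgs share drops from 62.0% to 46.4% by P5, while the Hep-Orgs lines are level.

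Markers of other cell types and of proliferation also differed between the passages of Cho-Orgs. The 18 hepatocyte markers summed to 12871 to 14486 FPKM at P0, 574 to 706 FPKM at P5 and 177 to 187 FPKM at P10, and at P10 Cps1, Cyp1a2, Cyp2e1, Cyp3a11 and Serpina1c were at 0. The 10 proliferation genes summed to 379 to 553 FPKM at P0 and 77.5 to 85.3 FPKM at P10, and all 10 fell. The 12 macrophage markers summed to 43.8 to 49.5 FPKM at P0, 72.1 to 77.3 FPKM at P5 and 10.1 to 10.5 FPKM at P10. Cd68, a lysosomal membrane protein, made up nearly all of the sum at P5 (30.4, 74.5 and 9.53 FPKM at the 3 passages), and 9 of the 12 were at 0 at P5 and 9 at P10, at both among them C1qa, C1qb, C1qc, Marco and Lyz2. The 11 stellate markers summed to 64.6 to 79.3 FPKM at P0 and 0.209 to 0.284 FPKM at P10. Reln alone made up nearly all of the P0 sum (69.2 ± 7.80 FPKM), and Rgs5 had 4.16 ± 0.633 FPKM there. In any Cho-Orgs library the 10 sinusoidal endothelial markers summed to at most 16.7 FPKM and the 10 blood markers to at most 9.60 FPKM. The part of these markers in the fall of the Krt8 and Krt18 share was not tested.

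The lists that follow are read beside all genes tested from P0 to P10, of which 41.0% were higher and 31.3% lower, with a median log2 fold change of 0.07. Of 20 keratin linkers and partners, 19 were tested from P0 to P10, of which 10 rose and 6 fell, with a median log2 fold change of 0.18. Ezrin (Ezr), a linker of membrane and cytoskeleton, was the most abundant, with 250 ± 7.17 FPKM at P0 and 383 ± 3.37 FPKM at P10. Periplakin (Ppl), a plakin that binds keratin filaments, rose from 36.5 ± 2.65 to 59.6 ± 0.250 FPKM, and trichoplein (Tchp), a keratin-binding protein, from 3.12 ± 0.0880 to 5.88 ± 0.150 FPKM. The largest falls were in stratifin (Sfn), a 14-3-3 protein, from 18.8 ± 3.77 to 10.8 ± 0.205 FPKM, and in the desmosomal cadherin Dsc2, from 17.9 ± 3.90 to 12.1 ± 0.375 FPKM.

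Of 22 keratins of stratified and squamous epithelia, 17 were listed and 5 tested, of which 3 rose and 1 fell from P0 to P10. Krt4, a type II chain of stratified lining epithelium, rose from 16.0 ± 4.14 FPKM at P0 to 171 ± 3.86 at P5 and 191 ± 1.66 at P10 (log2 fold change 3.53 ± 0.15, limma adjusted p = 3.19e-08), so that at P10 it lay above Krt23. Krt80 rose from 0.894 ± 0.305 to 8.84 ± 0.616 FPKM, and Krt17 fell from 3.36 ± 1.55 to 0.0629 ± 0.0651 FPKM. Of 13 other intermediate filament genes, 5 were tested, of which 4 fell and none rose. Vimentin (Vim), the filament of mesenchymal cells, had a mean of 3.15 FPKM over the P0 libraries and was listed at 0 in each P10 library, and neurofilament light (Nefl) had 6.75 ± 3.31 FPKM at P0 and 0.0184 ± 0.0121 FPKM at P10. Lamin A (Lmna), the most abundant, had 63.4 ± 8.34 FPKM at P0 and 58.8 ± 1.20 FPKM at P10 and did not pass (adjusted p = 0.314).

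Of 20 epithelial transcription factors, all were tested, and 4 rose and 8 fell from P0 to P10. Elf3, the most abundant, had 201 ± 10.4 FPKM at P0, 223 ± 12.9 at P5 and 83.5 ± 2.60 by P10. Klf6 rose from 17.9 ± 1.04 to 41.5 ± 0.922 FPKM. Prox1, a factor of hepatocyte identity, fell from 13.4 ± 3.54 to 0.259 ± 0.0242 FPKM, and Foxa3 from 19.6 ± 2.11 to 2.94 ± 0.314 FPKM.

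Of the non-keratin cholangiocyte markers, 14 were tested from P0 to P10, of which 4 rose and 7 fell, with a median log2 fold change of -0.38 (0.07 over all genes tested). The water channel Aqp1 rose from 55.8 ± 18.3 to 352 ± 5.33 FPKM and the claudin Cldn4 from 123 ± 24.6 to 212 ± 3.01 FPKM, while Spp1 (osteopontin) fell from 3682 ± 837 to 527 ± 2.98 FPKM and the chloride channel Cftr from 35.1 ± 19.6 to 1.04 ± 0.0205 FPKM.

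The genes whose levels followed each keratin most closely are given as a description, since 9 libraries of 3 passages share their passage and many genes changed with it. Nearest to Krt7 by Pearson correlation of log2(FPKM + 1) were Slc1a5, a carrier of neutral amino acids (r = 0.999), the TNF receptor family member Eda2r (r = 0.998) and the Golgi protein Golim4 (r = 0.998). Nearest to Krt8 were Ppfibp1 (r = 0.992), Ndst1 (r = 0.987) and Epb41l5 (r = 0.985). Nearest to Krt18 were Stbd1 (r = 0.997), Phldb2 (r = 0.982) and St3gal2 (r = 0.977), and nearest to Krt19 were Itsn2 (r = 0.995), Agfg2 (r = 0.994) and Sqor (r = 0.994). Krt20 came closest to Tfpi (r = 0.985) and Gosr1 (r = 0.982), and Krt23 to Zfp263 (r = 0.991), Pank4 (r = 0.990) and Nub1 (r = 0.987). No member was among the 3 nearest of another, and between members r ran from -0.81 for Krt8 and Krt23 to 0.96 for Krt7 and Krt19.

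The second comparison asked whether the keratins of Hep-Orgs differed from those of the libraries labelled Primary hepatocytes, and over passage. None of the 6 passed limma's test of all Hep-Orgs against the libraries labelled Primary hepatocytes, where 0% of 10986 genes tested passed and 8.79% had an unadjusted p under 0.05. None passed the F test over the 4 groups, where 0.0182% passed (2 genes, and 0 with a replicate block) and 9.99% had an unadjusted p under 0.05. With limma-voom on recovered fragments these 2 tests called 12 and 65 genes, and no member. The libraries of all 6 members overlapped between Hep-Orgs and the libraries labelled Primary hepatocytes.

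Krt18 came nearest to a difference. It had 658, 615 and 652 FPKM in the libraries labelled Primary hepatocytes and 648, 674 and 701 FPKM as the lowest, median and highest of 9 Hep-Orgs libraries, a log2 difference of 0.07 ± 0.02 (SE, limma unadjusted p = 0.0123, adjusted p = 0.456). Over the 12 libraries its variance was 20.4 times the counting noise, against 5.70 times for Krt8, 5.27 for Krt7, 2.96 for Krt19, 1.76 for Krt23 and 1.01 for Krt20. The spread of Krt20 over all 12 libraries was thus close to that of counting alone. This index grows with the number of fragments, so it does not rank the genes by relative spread. As a percent of the mean, the SD was 6.06 for Krt23, 3.37 for Krt18, 2.87 for Krt7, 2.17 for Krt8, 1.91 for Krt19 and 1.75 for Krt20.

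The type II chains had near identical levels in both kinds of library. Krt8 had 331, 309 and 321 FPKM in the libraries labelled Primary hepatocytes against 315, 324 and 332 FPKM (lowest, median, highest) in Hep-Orgs, a log2 difference of 0.02 ± 0.02 (limma adjusted p = 0.882). Krt7 had 49.7, 45.7 and 50.3 FPKM against 48.7, 50.2 and 51.0 FPKM, a log2 difference of 0.05 ± 0.03 (adjusted p = 0.637). In both genes, library 2 of those labelled Primary hepatocytes was the lowest of the 12.

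Of the other type I chains, Krt19 had 240, 229 and 241 FPKM in the libraries labelled Primary hepatocytes against 235, 238 and 247 FPKM in Hep-Orgs, a log2 difference of 0.02 ± 0.02 (limma adjusted p = 0.848). Krt20 had 98.1, 101 and 96.3 FPKM against 97.7, 99.9 and 102 FPKM, with a difference of 0.02 ± 0.02 (adjusted p = 0.807). Krt23 had 19.8, 16.4 and 18.3 FPKM against 16.1, 17.2 and 18.7 FPKM, with a difference of -0.06 ± 0.05 (adjusted p = 0.794).

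The order of levels in the hepatocyte table was Krt18 (666 ± 22.5 FPKM, SD, n = 12), Krt8 (323 ± 7.02), Krt19 (239 ± 4.57), Krt20 (99.5 ± 1.74), Krt7 (49.8 ± 1.43) and Krt23 (17.6 ± 1.07), and neighbours did not overlap in any of the 4 groups. The place of Krt7 in it depends on the gene length that was used. FPKM is divided by length, and the hepatocyte table lists 7049 bases for Krt7, the union of the exons of its 5 transcripts in GENCODE M21. The steps of the FPKM values gave 1586 bases for the same gene in the cholangiocyte and Smart-Seq tables, shorter by a factor of 4.44. For Krt19 the lengths were 1855 and 1416 bases, a factor of 1.31, and for Krt8, Krt18, Krt20 and Krt23 the factors were between 0.989 and 1.08.

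With the lengths of the other tables, Krt7 would have 221 ± 6.34 FPKM (SD, n = 12) in place of 49.8, and would lie above Krt20 (98.5 ± 1.72) and below Krt19 (313 ± 5.98) and Krt8 (350 ± 7.61). Its ratio to Krt8 at P10 of Hep-Orgs would be 0.634 ± 0.0223 in place of 0.155 ± 0.00544, and the share of Krt8 and Krt18 among the 6 would be 61.3 ± 0.423% in place of 70.8 ± 0.303%. This rescaling assumes that the fragments counted for Krt7 come from the shorter model, which the FPKM cannot show. The fold change of a single gene between groups is not affected, since the length is the same in every library. Composition values can move, and the slope of the Krt8 and Krt18 share over the passages of Hep-Orgs was -0.204 percentage points per 5 passages as deposited (exact permutation, adjusted p = 0.348) and -0.183 with the other lengths (adjusted p = 0.467).

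**Figure D3:**
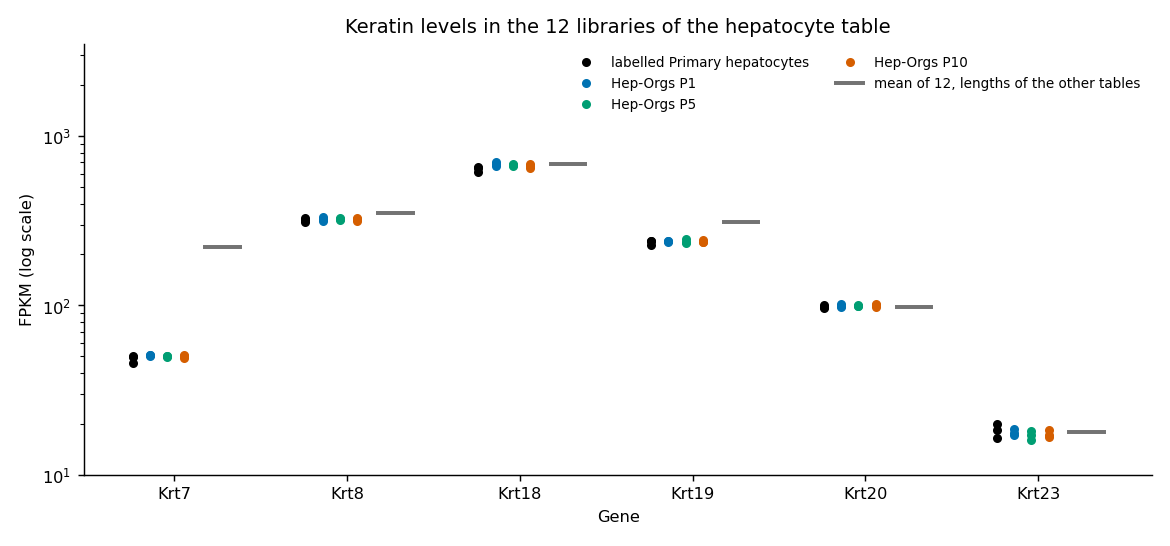
FPKM (log axis) of each keratin in the 12 libraries of the hepatocyte table. Points are libraries, coloured by group, and the grey bar is the mean of all 12 after rescaling to the gene lengths of the other tables. Groups overlap for each gene, and the grey bar departs from the points most for Krt7, at 221 against 49.8 FPKM.

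The make-up of the 6 keratins showed no passage slope in Hep-Orgs that passed. Of the 5 composition values tested over P1, P5 and P10, the smallest exact permutation p was 0.254, for the summed level, which was 1414 ± 30.5 FPKM (SD, n = 3) at P1, 1407 ± 9.68 at P5 and 1394 ± 18.8 at P10. The log2 ratio of Krt7 to Krt8 had a slope of -0.0081 per 5 passages (exact permutation p = 0.613), beside 1.12 in Cho-Orgs. The difference between the 2 kinds of organoid was not tested, since the tables were normalized separately and begin at different passages. Their media differed as well.

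Of the other lists in the hepatocyte table, no gene passed the contrast of all Hep-Orgs against the libraries labelled Primary hepatocytes. This holds for 18 tested keratin linkers and partners, 20 epithelial transcription factors, 4 other intermediate filament genes and 1 stratified keratin. The stratified keratins summed to 1.70 to 2.73 FPKM over the 12 libraries, and the 12 intestinal and gastric markers to 86.8 to 110 FPKM. The macrophage markers summed to 7.34 to 9.86 FPKM and the stellate markers to 6.81 to 7.77 FPKM.

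The third comparison set the 3 shapes of P0 Hep-Orgs side by side. With 1 library per shape there is no replicate check and no test, and intervals are Poisson intervals of the fragment count. They can be too narrow even for counting error, since amplified fragments without molecular identifiers are not independent molecules. The Grape-like library was lowest in 5 of the 6 keratins, the exception being Krt20, and the 6 summed to 279 FPKM there against 1423 FPKM for Intermediate and 1374 FPKM for Round-like Hep-Orgs. In FPKM + 1, 5 members were at least 2-fold lower in the Grape-like than in the Round-like library, as were 8.95% of genes, and all 6 were at least 2-fold lower in the Grape-like than in the Intermediate library, as were 7.32%. No member was at least 2-fold higher in the Grape-like library, against 13.1% of genes beside Round-like and 9.94% beside Intermediate. The median log2 ratio of all genes was -0.13 for Grape-like against Round-like.

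The pair of Krt8 and Krt18 moved together. Krt8 had 115 FPKM (8284 fragments, 95% Poisson interval 112 to 117 FPKM) in the Grape-like library, 557 FPKM (552 to 563) in Intermediate and 506 FPKM (501 to 511) in Round-like Hep-Orgs. Krt18 had 134 FPKM (131 to 137), 571 FPKM (565 to 577) and 491 FPKM (485 to 497) in the same order. The Grape-like to Round-like log2 ratio was -2.13 for Krt8 and -1.87 for Krt18, so the duct keratins Krt7 (-3.71) and Krt19 (-4.65) were further apart between these shapes than the pair. The ratio of Krt7 to Krt8 was 0.0353, 0.0536 and 0.128, and that of Krt19 to Krt18 was 0.0736, 0.364 and 0.554. Krt8 and Krt18 made up 89.3% of the 6 in the Grape-like, 79.3% in the Intermediate and 72.5% in the Round-like library, and the type I to type II ratio was 1.35, 1.42 and 1.41.

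Krt20 took another order than Krt8 and Krt18, while Krt23 took the same order as that pair. Krt20 was highest in the Intermediate library with 10.7 FPKM (843 fragments, 95% Poisson interval 10.01 to 11.47), against 2.21 FPKM (172 fragments, 1.89 to 2.56) in the Grape-like and 1.29 FPKM (101 fragments, 1.05 to 1.56) in the Round-like library. It was the only member at least 2-fold higher in the Intermediate than in the Round-like library, as were 4.03% of genes. Krt7, with a log2 ratio of -1.09, was the only one at least 2-fold lower, as were 2.66%. Krt23 had 13.8 FPKM (12.9 to 14.8), 46.0 FPKM (44.3 to 47.7) and 39.5 FPKM (38.0 to 41.1) in that same order of shapes, Grape-like first. The 12 intestinal and gastric markers summed to 34.5, 604 and 60.4 FPKM in that order, with the intestinal factor Cdx2 at 0.0932, 17.8 and 0.949 FPKM, and their part in the Krt20 level was not tested.

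**Figure D4:**
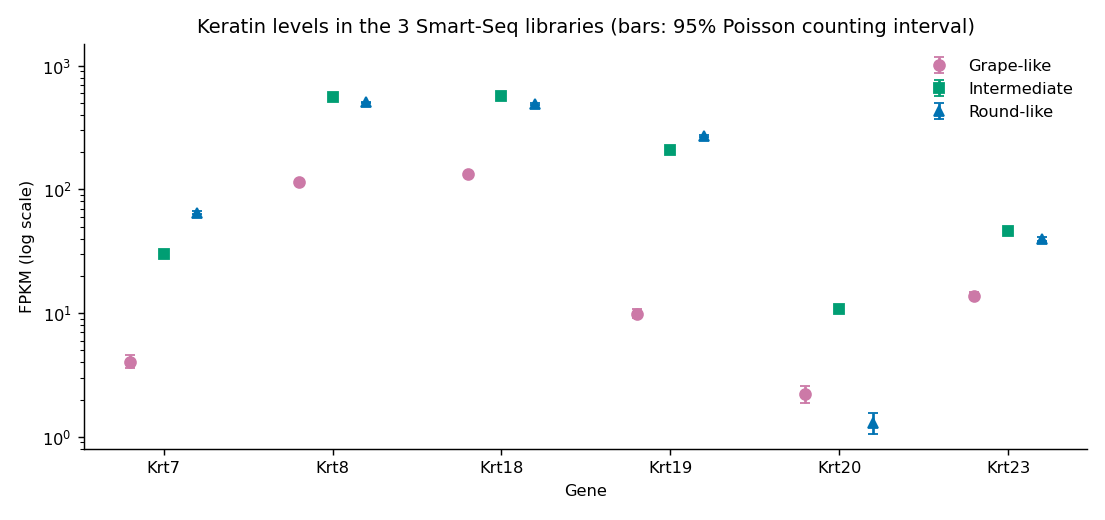
FPKM (log axis) of each keratin by Smart-Seq for each shape of P0 Hep-Orgs, 1 library each. Bars are 95% Poisson intervals of the fragment count, and most are smaller than the marker. The Grape-like library is lowest for each gene but Krt20, which peaks in the Intermediate library at 10.7 FPKM.

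Marker sums also differed between the 3 Smart-Seq libraries. The 18 hepatocyte markers summed to 9591 FPKM for Grape-like, 19193 FPKM for Intermediate and 2668 FPKM for Round-like Hep-Orgs, and the 14 listed non-keratin cholangiocyte markers to 1057, 3722 and 3375 FPKM. The 12 macrophage markers, none at 0, summed to 10925 FPKM in the Grape-like library, 3151 FPKM in Intermediate and 1750 FPKM in Round-like Hep-Orgs, with Lyz2 at 5942, 1792 and 887 FPKM. The 11 stellate markers summed to 1862, 479 and 399 FPKM and vimentin (Vim) had 281, 78.7 and 59.6 FPKM. Epcam had 29.7, 197 and 275 FPKM, and the 20 keratin linkers and partners summed to 223, 408.8 and 580.3 FPKM. The part of these markers in the lower keratin level of the Grape-like library was not tested.

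Set side by side, the make-up differed between cultures, with the caution that the tables were normalized separately and were not tested against each other. The media of these cultures also differed. Krt7 took 1.45% to 4.72% of the 6 in the Smart-Seq libraries, 6.60% in Cho-Orgs at P0 and 19.4% at P10. It took 3.57% in the 12 libraries of the hepatocyte table as deposited and 13.1% with the lengths of the other tables. Krt20 took 7.14% of the 6 in the hepatocyte table (5.85% with those lengths), where it had 99.5 FPKM, and 0.663% to 1.30% in Cho-Orgs and 0.0936% to 0.792% in the Smart-Seq libraries. Krt23 took 1.26% in the hepatocyte table and 2.81% to 4.96% elsewhere.

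**Figure D5:**
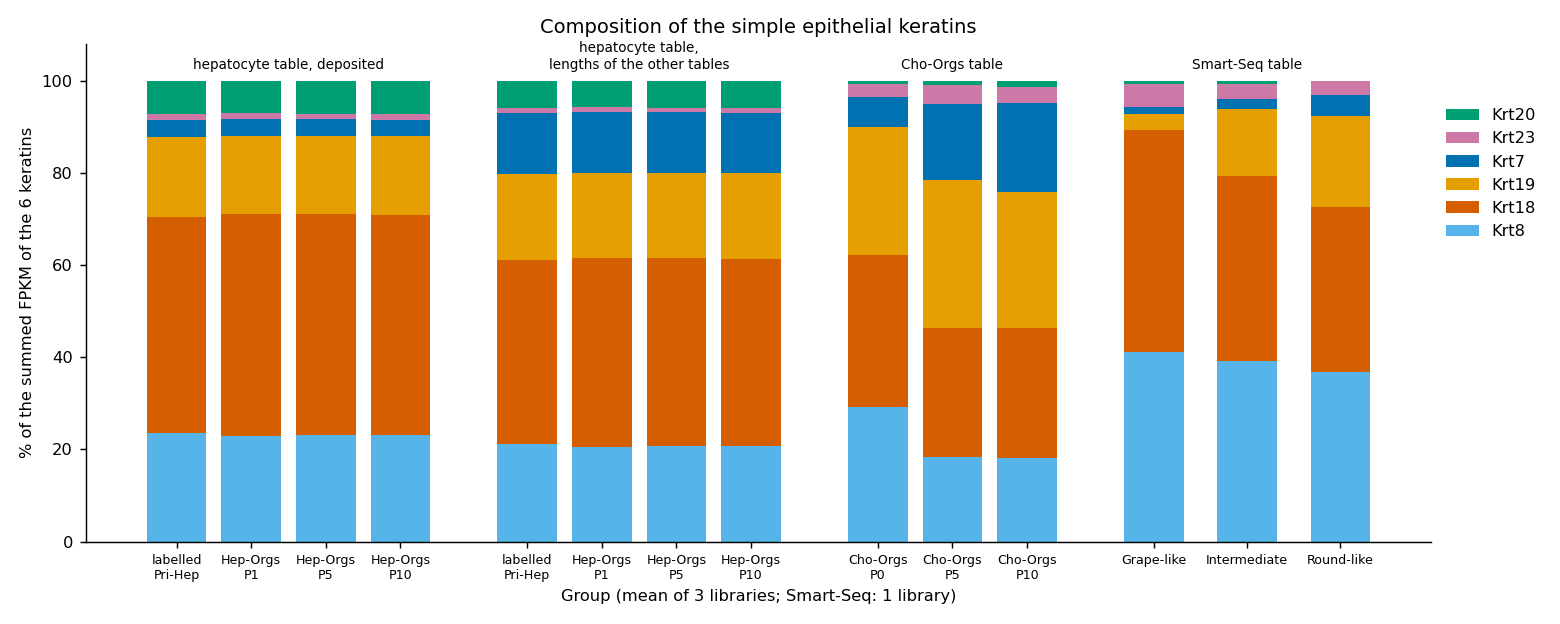
Each keratin as percent of the summed FPKM of the 6, from group means (3 libraries a group, 1 for Smart-Seq). The hepatocyte table is drawn as deposited and again with the gene lengths of the other tables. Krt7 (dark blue) widens from 6.60% to 19.4% over the passages of Cho-Orgs, and Krt20 (green) is widest in the hepatocyte table.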

How the data were processed

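The members and gene lists were chosen with earlier results of these data known. The 21 bulk poly(A) libraries and 3 Smart-Seq libraries were deposited as 3 tables of FPKM, which the authors computed from fragments per gene. The submitters' processing notes name mm10, featureCounts 2.0.3 and edgeR 3.40.2, and the aligner and the strand setting are not given in the sources used here.

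Groups came from the labels. Since the tables hold FPKM and not counts, log2(FPKM + 1) of genes with at least 1 FPKM in at least 3 libraries was fitted with limma 3.58.1 in R 4.3.3 (lmFit, eBayes with trend), in place of the authors' edgeR, with Benjamini-Hochberg adjustment at 0.05 over 10986 genes (hepatocyte table) and 11593 genes (cholangiocyte table). Fold changes understate low genes. Composition values were tested by exact permutation over 9 libraries. Permutation tests used scipy 1.17.1 and tables pandas 2.3.3 on numpy 2.4.6 in Python 3.11.15, and plots were drawn with matplotlib 3.10.9.

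In the hepatocyte table, FPKM times the listed gene length were whole multiples of 1 fragment, within a tolerance of 0.05 fragments, which gave library totals. In the other tables, totals came from trial lengths of genes with 1 transcript in GENCODE M21. The gene length was then the shortest that gave whole fragments in every library, found for 99.8% of 11593 genes. The fits were also run on simulated data, in which few genes changed and all genes had the same spread beyond counting. In Cho-Orgs 72.3% of genes tested passed from P0 to P10, so the simulation cannot show how well the fits work there. Replicate numbers entered only an alternative fit, since libraries of 1 number did not deviate together (values under the limits). Named genes are the 6 members, up to 2 genes in each direction and the most abundant of each list, and the 3 genes nearest to each member, except a few genes that are not reported here. The promoter sequences of the keratin genes came from RefSeq windows.

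The alternatives were a pseudocount of 0.1, no filter, TPM, median-ratio size factors, a replicate block, leaving out each replicate number, and limma-voom on recovered fragments. The voom fit of the cholangiocyte table and the rescaling of gene lengths were added after seeing the data.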

Additional observations from a re-analysis of the deposited data

How the results depend on the processing

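The calls of Krt7, Krt19, Krt20 and Krt23 from P0 to P10 kept their direction and side of the threshold under each alternative run. From P0 to P5 the log2 fold change of Krt20 was no longer past the threshold with no filter on low genes (0.79, limma adjusted p = 0.0874) or with median-ratio size factors (0.71, adjusted p = 0.0534). From P5 to P10 it passed with limma-voom (0.60, adjusted p = 0.0488), and that of Krt23 turned to -0.0084 with TPM. With a replicate number left out, values from P0 to P5 ran from -0.15 to 0.036 for Krt18 and from 0.38 to 1.01 for Krt20. From P5 to P10 they ran from 0.193 to 0.194 for Krt18, from 0.56 to 0.62 for Krt20 and from -0.11 to 0.080 for Krt23. From P0 to P10 they ran from -0.46 to -0.27 for Krt8, from 0.041 to 0.23 for Krt18 and from 0.97 to 1.63 for Krt20. In Hep-Orgs against the libraries labelled Primary hepatocytes they ran from -0.012 to 0.051 for Krt8 and from -0.0023 to 0.031 for Krt19. The cause was not tested in these cases.

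Without 1 replicate number, 6 libraries allow 90 arrangements and an exact permutation p of at least 0.0222, and no composition value of Cho-Orgs passed after adjustment. The slopes per 5 passages then ran from 1.06 to 1.20 for the log2 ratio of Krt7 to Krt8, from -8.51 to -6.93 percentage points for the share of Krt8 and Krt18, and from 0.14 to 0.19 for the log2 sum. In Hep-Orgs they ran from -0.023 to 0.0092 for the log2 ratio of Krt7 to Krt8, from -0.023 to 0.0016 for that of type I to type II chains and from -0.026 to 0.0016 for the log2 sum. All Hep-Orgs against the libraries labelled Primary hepatocytes gave 1 gene with no filter and 12 with limma-voom in place of 0, and the F test gave 65 genes with limma-voom and 0 to 2 without a replicate number in place of 2.

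The study's figure legends give the numbers 1 to 3 as mice and its methods name separate cultures, so whether a number marks 1 mouse at each passage was not settled. The median correlation of deviations was -0.0016 over 18 same-number pairs in the hepatocyte table and -0.0063 over 9 pairs in the cholangiocyte table. With the replicate block no call of a member changed in limma, the F test called 0 genes, and the fall of the Krt8 and Krt18 share (-7.86) had an adjusted p of 0.123. The slopes of the log2 ratio of Krt7 to Krt8 and of the log2 sum in Cho-Orgs each had an adjusted p of 0.0463 (exact permutation).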
